A study of Drosophila melanogaster with 9 samples.

Results

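The vacuolar ATPase (V-ATPase) subunit genes and 9 other genes of the lysosome were followed in S2 cells, a cultured Drosophila line of embryonic origin that resembles the fly's macrophages. Members were the genes whose symbol in the array annotation begins with Vha, together with CtsB, cathD, CtsL1, CtsF, Acph-1, Npc1a, Npc2a, Npc2b and Lamp1. They numbered 37 of the 11574 genes named from a probe set of 1 gene, of which 28 were V-ATPase genes. Each gene was represented by its probe set with the highest mean over the arrays. Vha16-1 alone had 2 probe sets.

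The 9 Affymetrix arrays formed 3 groups of 3. NELF dsRNA cells had been given double-stranded RNA against NELF-B and NELF-E for 72 h, which depletes the complex that holds RNA polymerase II near promoters. LacZ dsRNA cells had been given dsRNA against beta-galactosidase for 72 h as the mock treatment, and untreated cells had received no dsRNA. All 3 groups were the same cell line in the same serum-containing medium, so the depletion was a transient one in cultured cells. No label names separate cultures for the arrays of 1 group. The p-values therefore cover only the spread among these samples, and that spread may be technical.

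The V-ATPase is the proton pump that acidifies lysosomes and endosomes. Its cytosolic V1 sector hydrolyses ATP and turns a rotor, and its membrane V0 sector carries protons into the lumen. The acid activates the cathepsins and acid phosphatase that digest lysosomal cargo, while the NPC proteins pass sterols out of the lumen and Lamp1 is a glycoprotein of the lysosomal membrane. Macrophage-like cells such as S2 cells take up particles and degrade them in this compartment.

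The dsRNA targets were low in NELF dsRNA cells. NELF-B read 4.76, 4.83 and 4.54 (log2 intensity) in NELF dsRNA cells, against 7.41, 7.47 and 7.63 in LacZ dsRNA cells and 7.41, 7.17 and 7.16 in untreated cells. Nelf-E read 2.52, 3.65 and 3.82 in NELF dsRNA cells, against 7.98, 7.81 and 7.48 in LacZ dsRNA cells. A log2 intensity of 3.77, the 95th percentile of the control probe sets, served as the detection limit. Each array had 8010 to 8059 probe sets over this limit, and NELF dsRNA array 3 and LacZ dsRNA array 1 had the fewest measured probe sets (13854 and 13935, against 14086 to 14196 on the other arrays). Of 13 hemocyte markers with a probe set, 7 lay above the limit on all 9 arrays (srp, ush, Pxn, crq, Pvr, vkg and Col4a1), and gcm and NimC1 on none. Pxn was higher (log2 change 0.88, limma adjusted p = 0.00013) and eater lower (log2 change -2.66, limma adjusted p = 0.00069) in NELF than in LacZ dsRNA cells. Markers of other cell types with a probe set numbered 14, among them 3 of crystal cells and 1 of lamellocytes, which are themselves hemocyte classes. Of the 14, 7 lay above the limit on any array, 2 of them (elav of neurons and PPO2 of crystal cells) on all 9. Not all of the 14 markers had enough values to be tested, and none of those tested was called. Their summed linear intensity was 137 to 173 in NELF dsRNA cells, 174 to 198 in LacZ dsRNA cells and 175 to 239 in untreated cells. The part of these markers in the results was not tested.

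S2 cells expressed most V-ATPase subunits, and many paralogs lay at or under the detection limit. Of the 28 V-ATPase genes, 15 were above the limit on all 9 arrays, 6 on some arrays and 7 on none. The 15 were 7 V1 subunits (Vha55, Vha44, Vha36-1, Vha26, Vha14-1, Vha13 and VhaSFD), 7 V0 subunits (Vha100-1, Vha100-2, Vha16-1, VhaPPA1-1, VhaAC39-1, VhaM9.7-b and VhaM9.7-c) and the accessory subunit VhaAC45. Above the limit, subunits a and e of V0 were each represented by 2 genes, and c, c'' and d of V0 and B, C, D, E, F, G and H of V1 by 1 gene each. The catalytic A subunit was represented by Vha68-3 alone, which lay under the limit on each of the 7 arrays that measured it. Vha68-1, Vha68-2, Vha36-2, Vha16-3 and VhaM9.7-d had no probe set of their own in the annotation and were not analysed here.

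**Figure D1:**
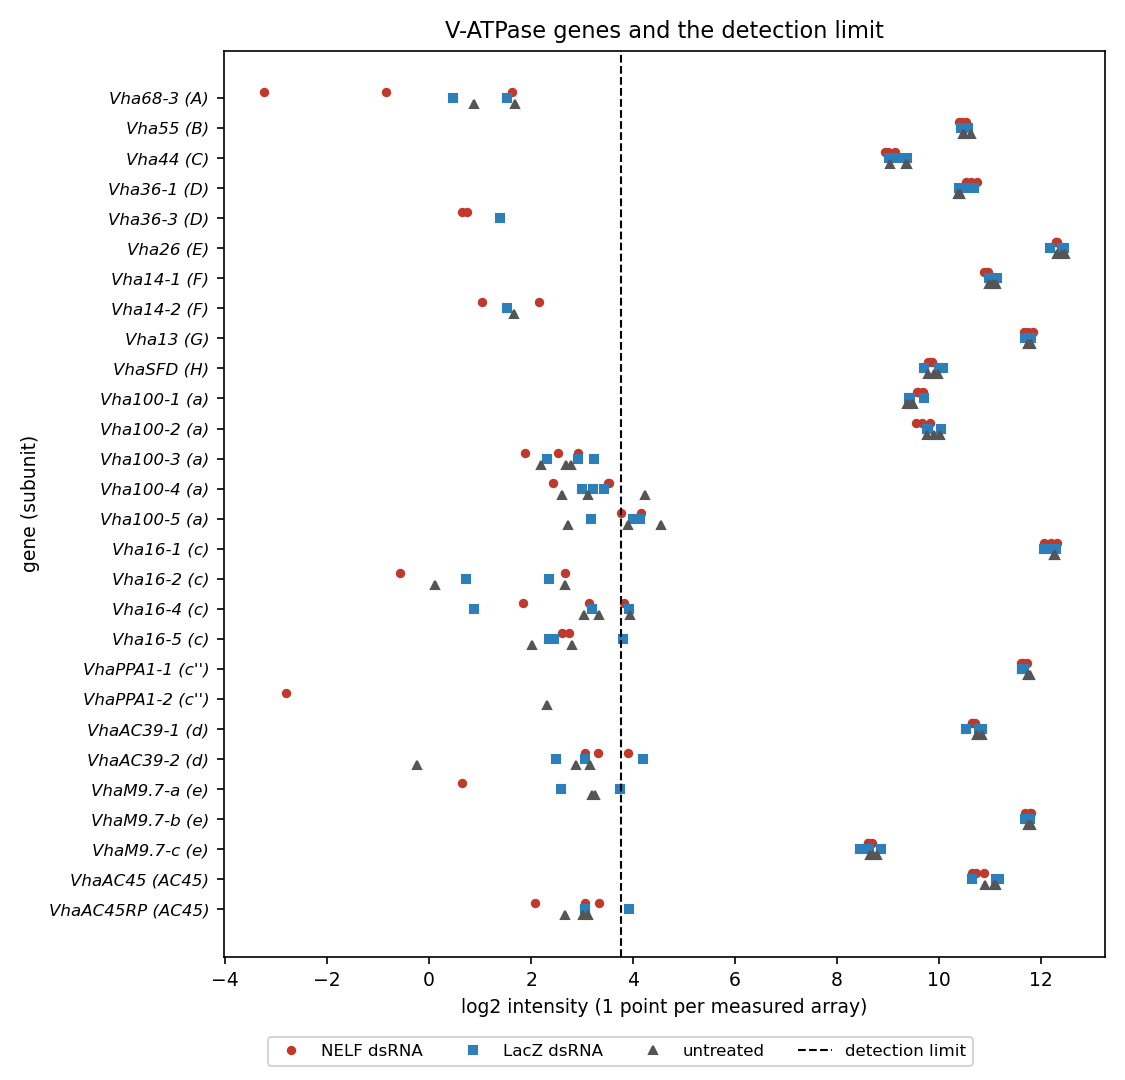
Log2 intensity of the 28 V-ATPase genes (rows, with the subunit in brackets), 1 point per array that measured the gene, with NELF dsRNA, LacZ dsRNA and untreated cells in separate colours and shapes. The 15 genes to the right of the dashed detection limit (3.77) lay above it on all 9 arrays, and the other 13 lay around or under it.

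Paralogs at the limit gave no usable change. Vha100-5, an a subunit gene, lay above the limit on 5 of the 8 arrays that measured it, with means of 3.96 ± 0.28 (SD, n = 2) in NELF dsRNA cells and 3.77 ± 0.52 (SD, n = 3) in LacZ dsRNA cells. Vha16-4 did so on 3 arrays, VhaAC39-2 on 2, and Vha100-4, Vha16-5 and VhaAC45RP on 1 each. Vha100-3, Vha14-2, Vha16-2, Vha36-3, Vha68-3, VhaM9.7-a and VhaPPA1-2 lay above it on no array. The arrays on which such genes passed the limit did not share a group: for VhaAC39-2 those arrays were NELF dsRNA array 3 (3.90) and LacZ dsRNA array 2 (4.20), for Vha16-5 it was LacZ dsRNA array 1 (3.80) and for Vha100-4 untreated array 2 (4.24).

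The question for the NELF dsRNA cells was which transcripts differ once NELF is depleted, with LacZ dsRNA cells showing what dsRNA does by itself. Npc2b, CtsB and Acph-1 fell after NELF dsRNA, and no V-ATPase subunit passed the test. The test was limma's moderated test on log2 intensity, fitted over all 9 arrays, with Benjamini-Hochberg adjustment across every probe set tested and a threshold of 0.05. Of the 37 members, 33 could be tested in NELF against LacZ dsRNA cells, of which 3 were lower and 0 higher. Over all probe sets tested 2.71% were lower, 1.85% higher and 4.56% called in either direction, and among those above the limit on all 9 arrays 4.52% were lower and 7.82% called in either direction. Against untreated cells the same 3 of 33 members were lower and 0 higher, with 3.53% of all probe sets lower, 2.63% higher and 6.16% called in either direction. In such bulk RNA, fewer cells of a type and less RNA per cell cannot be told apart.

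Npc2b, a lumenal sterol-binding protein of the NPC2 family, showed the largest fold difference of the called members. It read 6.91, 7.18 and 6.75 in NELF dsRNA cells, against 8.64, 8.28 and 7.99 in LacZ dsRNA cells and 8.01, 8.39 and 7.95 in untreated cells. All 3 NELF dsRNA arrays lay below all 6 others. The means were 6.95 ± 0.22 in NELF dsRNA cells, 8.30 ± 0.32 in LacZ dsRNA cells and 8.11 ± 0.24 in untreated cells (SD, n = 3 each). Npc2b was 2.56-fold lower in NELF than in LacZ dsRNA cells (log2 change -1.36, SE 0.16, 95% interval -1.70 to -1.01, limma adjusted p = 7.9e-05). It was 2.25-fold lower than in untreated cells (log2 change -1.17, SE 0.16, limma adjusted p = 0.00026). The LacZ dsRNA cells differed from untreated ones by a log2 change of 0.19 (limma adjusted p = 0.74), with overlapping arrays.

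The other sterol carriers did not pass the threshold. Npc2a, the paralog that delivers sterol to the membrane carrier, read 8.64, 8.58 and 8.73 in NELF dsRNA cells, against 9.0, 8.65 and 8.52 in LacZ dsRNA cells and 8.90, 8.89 and 8.80 in untreated cells. NELF and LacZ dsRNA arrays overlapped (log2 change -0.07, 95% interval -0.30 to 0.15, limma adjusted p = 0.82), while every NELF dsRNA array lay below every untreated one (log2 change -0.21, limma adjusted p = 0.31). Npc1a, the membrane carrier that takes sterol out of the lysosome, read 8.41, 8.33 and 8.38 in NELF dsRNA cells, against 8.12, 8.25 and 8.33 in LacZ dsRNA cells and 8.14, 8.02 and 8.27 in untreated cells. Its NELF dsRNA values lay above those of untreated cells without overlap, with a log2 change of 0.23 that missed the threshold (limma adjusted p = 0.18). Against LacZ dsRNA cells the log2 change was 0.14 (95% interval -0.05 to 0.33, limma adjusted p = 0.55), with 1 NELF dsRNA array equal to the highest LacZ dsRNA array to 2 decimals.

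Among the 4 proteases only CtsB, a cysteine cathepsin, passed the test. CtsB read 9.41, 9.39 and 9.42 in NELF dsRNA cells, against 9.87, 9.92 and 9.82 in LacZ dsRNA cells and 9.99, 9.99 and 9.91 in untreated cells. The NELF dsRNA arrays lay within 0.03 of each other and below all 6 other arrays. It was 1.38-fold lower than in LacZ dsRNA cells (log2 change -0.46, SE 0.06, 95% interval -0.59 to -0.33, limma adjusted p = 0.00019) and 1.47-fold lower than in untreated cells (log2 change -0.56, SE 0.06, limma adjusted p = 2.5e-05). Between LacZ dsRNA and untreated cells the arrays overlapped (log2 change -0.10, limma adjusted p = 0.63).

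CtsL1, the cathepsin L gene, had its low values in LacZ dsRNA cells. It read 12.70, 12.59 and 12.58 in NELF dsRNA cells, against 12.41, 12.48 and 12.44 in LacZ dsRNA cells and 12.67, 12.59 and 12.60 in untreated cells. All LacZ dsRNA arrays lay below the 6 others, which overlapped each other. The log2 change was 0.18 for NELF against LacZ dsRNA cells (SE 0.06, limma adjusted p = 0.092), 0.00 for NELF dsRNA against untreated cells (95% interval -0.11 to 0.12) and -0.18 for LacZ dsRNA against untreated cells (limma adjusted p = 0.27). The first of these passed the threshold in 1 of 18 alternative settings (limma adjusted p = 0.038). That setting tested only probe sets with a group mean above the detection limit. Over all 18 the limma adjusted p reached 0.37.

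cathD, an aspartic protease, had its high values in untreated cells. It read 11.42, 11.39 and 11.42 in NELF dsRNA cells, against 11.36, 11.38 and 11.39 in LacZ dsRNA cells and 11.55, 11.52 and 11.54 in untreated cells. Both dsRNA groups lay below all untreated arrays. The log2 change was -0.13 for NELF dsRNA against untreated cells (limma adjusted p = 0.19) and -0.16 for LacZ dsRNA against untreated cells (limma adjusted p = 0.26), and NELF and LacZ dsRNA cells differed by 0.04 (95% interval -0.07 to 0.14). The NELF dsRNA difference from untreated cells passed the threshold in 1 of 18 alternative settings (limma adjusted p = 0.007). There, values under the detection limit were set to that limit, which changed none of the cathD values. The setting thus acted only through other probe sets. Over all 18 the limma adjusted p reached 0.4. CtsF, a cysteine cathepsin, averaged 11.41 ± 0.10 in NELF dsRNA cells, 11.49 ± 0.14 in LacZ dsRNA cells and 11.57 ± 0.14 in untreated cells (SD, n = 3 each). Its NELF and LacZ dsRNA arrays overlapped (log2 change -0.08, 95% interval -0.26 to 0.10). A further probe set that CtsF shares with another gene was not used.

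Acph-1, a lysosomal acid phosphatase, was the third gene that fell. It read 7.93, 7.96 and 8.01 in NELF dsRNA cells, against 8.31, 8.38 and 8.20 in LacZ dsRNA cells and 8.42, 8.31 and 8.44 in untreated cells. No NELF dsRNA array reached the lowest of the 6 others. It was 1.34-fold lower than in untreated cells (log2 change -0.43, SE 0.08, limma adjusted p = 0.0048) and 1.26-fold lower than in LacZ dsRNA cells (log2 change -0.33, SE 0.08, 95% interval -0.51 to -0.15, limma adjusted p = 0.032). The second call was the less firm: it was lost in 10 of 18 alternative settings, with adjusted p over all 18 from 0.021 to 0.14, including those without any 1 of the NELF dsRNA arrays, LacZ dsRNA array 2 or untreated array 1 or 3.

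Lamp1 read 12.36, 12.39 and 12.29 in NELF dsRNA cells, against 12.33, 12.55 and 12.52 in LacZ dsRNA cells and 12.60, 12.49 and 12.58 in untreated cells. NELF dsRNA arrays lay below all untreated arrays and overlapped the LacZ dsRNA arrays through LacZ dsRNA array 1. The log2 change was -0.21 against untreated cells (SE 0.06, limma adjusted p = 0.077) and -0.12 against LacZ dsRNA cells (95% interval -0.26 to 0.02, limma adjusted p = 0.44). The first of these passed the threshold in 5 of 18 alternative settings: without LacZ dsRNA array 1 (limma adjusted p = 0.012), with only the 6 arrays compared (0.021), after quantile normalization (0.031), with only probe sets with a group mean above the limit (0.041) and without the 2 arrays with the fewest measured probe sets (0.045).

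**Figure D2:**
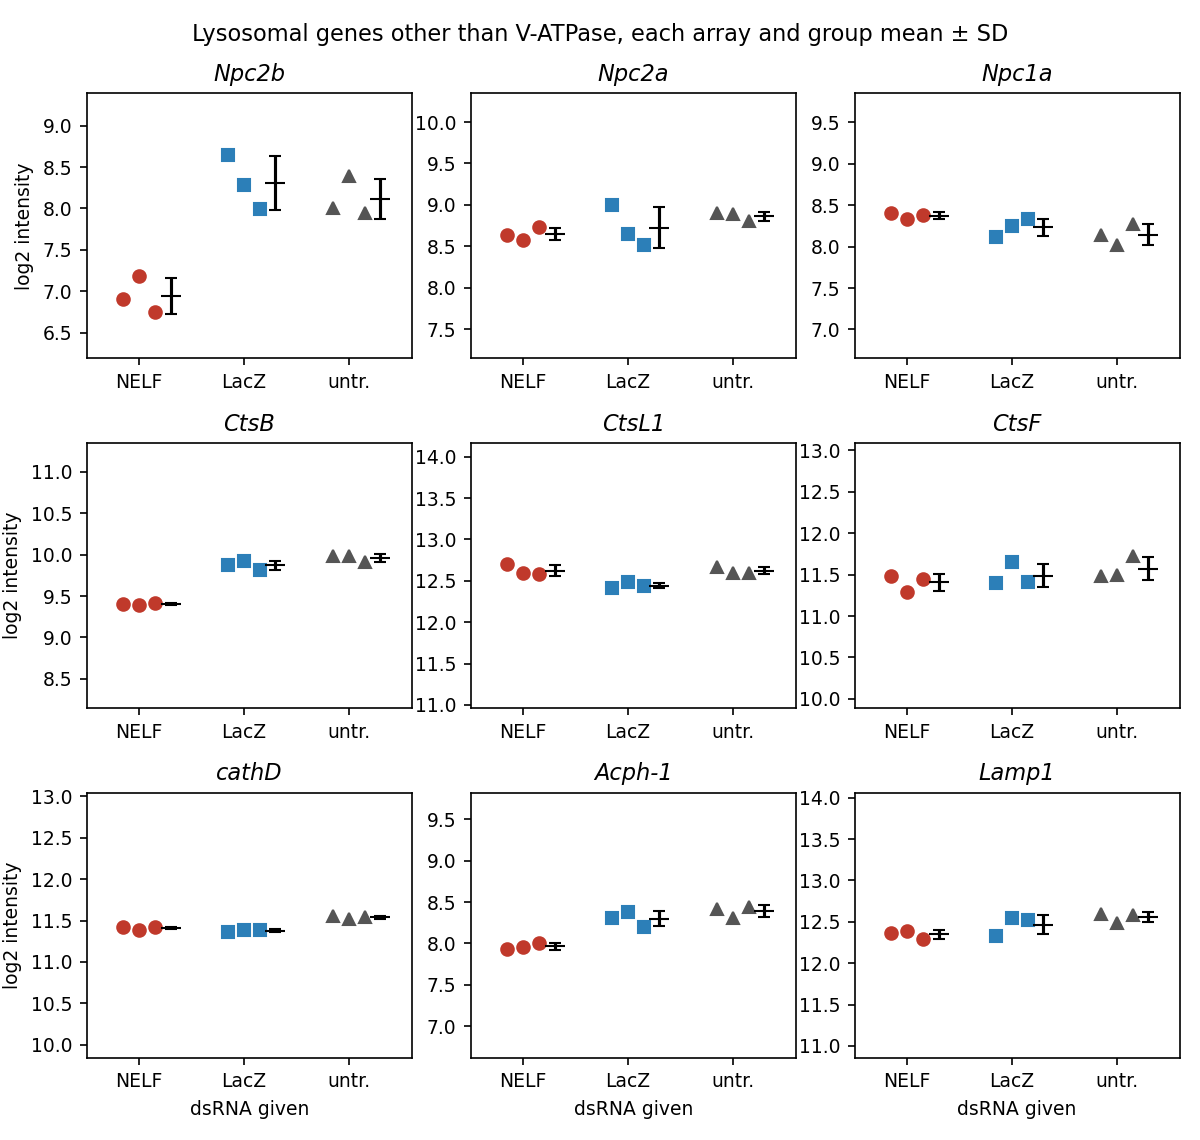
Log2 intensity of the 9 lysosomal genes other than V-ATPase on each array, with the group mean and SD (n = 3) beside the points, and the same span of 3.2 log2 units on every axis. In NELF dsRNA cells Npc2b, CtsB and Acph-1 lay below all LacZ dsRNA and untreated arrays, while the other 6 genes moved by less than 0.25 between group means.

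The V-ATPase subunits above the detection limit differed little between groups. Of 24 V-ATPase genes tested in NELF against LacZ dsRNA cells, 0 passed limma's test and 0 had an unadjusted p under 0.05, against 14.9% of all probe sets. The log2 changes of the 15 subunits above the limit ran from -0.24 to 0.10, with a median of -0.05, 6 above 0 and 9 below. Their median absolute change was 0.05. Over the 6929 probe sets above the limit on all 9 arrays it was 0.12, and over the 2504 probe sets with a mean at least that of the lowest subunit (8.66) it was 0.09, of which 9.78% were called. All 15 of the 95% intervals stayed within a 1.5-fold change either way, with outermost bounds of 1.39-fold lower and 1.21-fold higher. Against untreated cells the 15 changes ran from -0.28 to 0.24, with a median of -0.08, 2 above 0 and 13 below, and the outermost bounds were 1.44-fold lower and 1.33-fold higher. Here 0 of 24 tested genes passed and 4 had an unadjusted p under 0.05 (2 higher, 2 lower), against 17.6% of all probe sets. Among the 2504 probe sets with a mean of at least 8.66 the median was -0.00 and 51.4% were below 0.

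**Figure D3:**
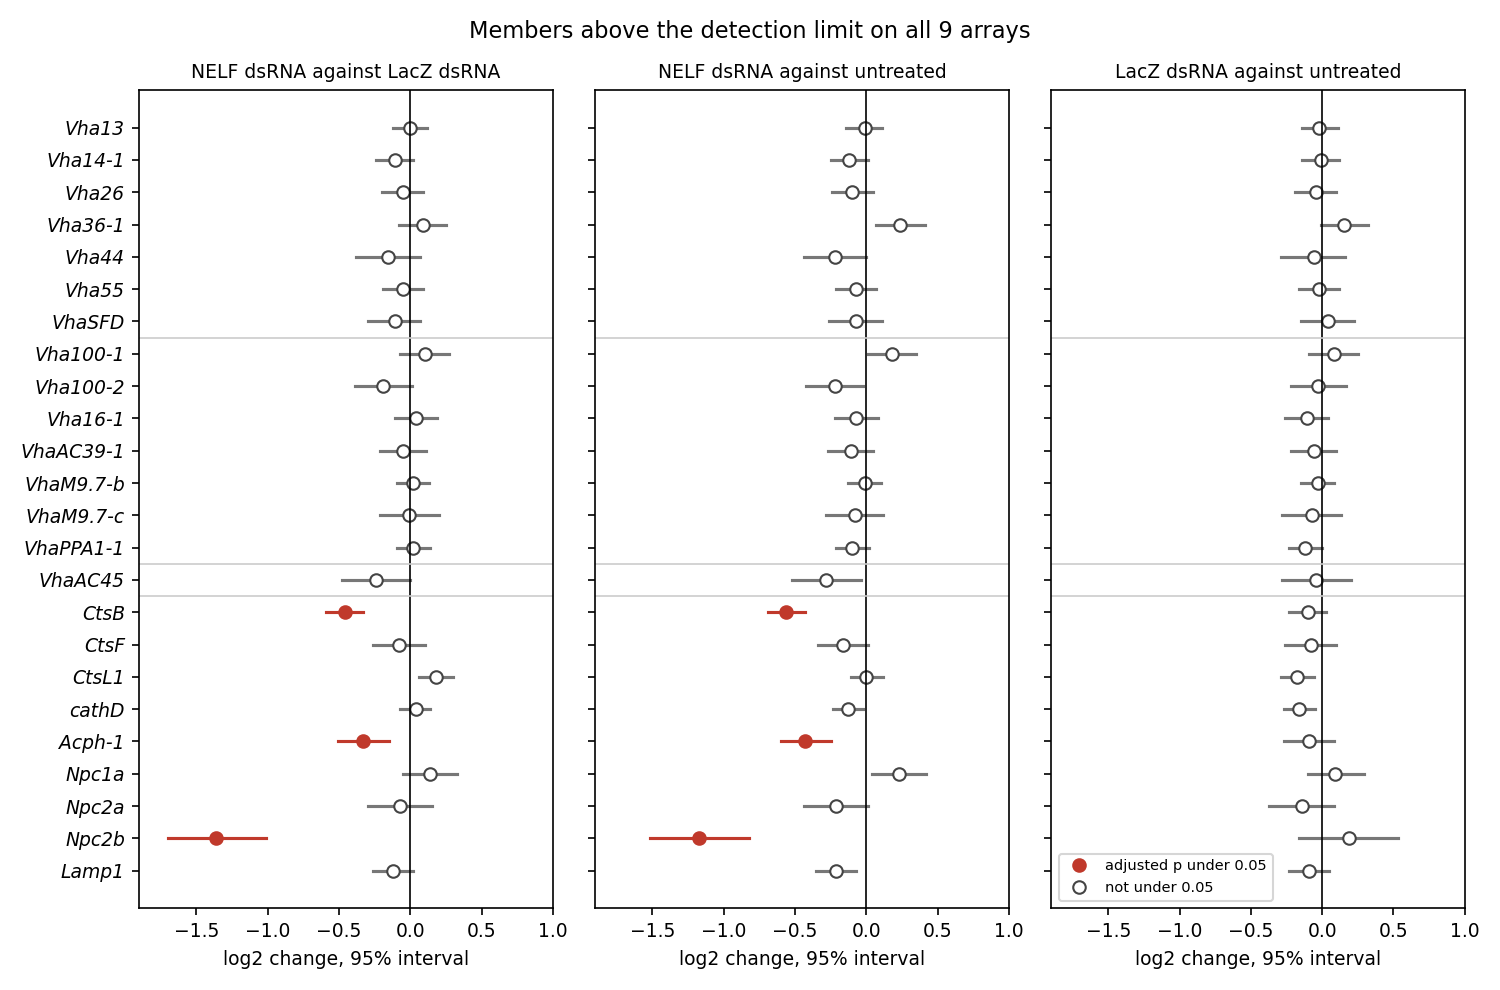
Log2 change and 95% interval of the 24 members above the detection limit on all 9 arrays, for NELF dsRNA against LacZ dsRNA cells, NELF dsRNA against untreated cells and LacZ dsRNA against untreated cells. Grey lines part the V1 subunits, V0 subunits, VhaAC45 and the other lysosomal genes, and filled red points mark adjusted p under 0.05. Npc2b, CtsB and Acph-1 are the filled points in the first 2 panels, and the third panel has none.

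In the V1 sector none of 8 tested genes was called in any comparison. Over all probe sets 4.56% were called in NELF against LacZ dsRNA cells and 6.16% in NELF dsRNA against untreated cells. In LacZ dsRNA against untreated cells the share was 0.0540%. Among so few genes a count of 0 is near these shares. Vha14-1, the F subunit of the rotor shaft, had the smallest adjusted p of the V1 genes in NELF against LacZ dsRNA cells. It read 10.88, 10.96 and 10.93 in NELF dsRNA cells, against 11.13, 11.00 and 10.97 in LacZ dsRNA cells and 10.98, 11.11 and 11.05 in untreated cells. The NELF dsRNA arrays were the lowest 3 of the 9, by a log2 change of -0.11 against LacZ dsRNA cells (SE 0.06, limma adjusted p = 0.46) and -0.12 against untreated cells (limma adjusted p = 0.34). Vha36-1, the D subunit of the same shaft, averaged 10.64 ± 0.11 in NELF dsRNA cells, 10.55 ± 0.15 in LacZ dsRNA cells and 10.40 ± 0.02 in untreated cells (SD, n = 3 each). Its NELF dsRNA arrays lay above all untreated arrays (log2 change 0.24, SE 0.08, limma adjusted p = 0.095).

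The other V1 subunits also did not pass the test. Vha55, the B subunit of the head, averaged 10.45 ± 0.07 in NELF dsRNA cells, 10.50 ± 0.07 in LacZ dsRNA cells and 10.52 ± 0.08 in untreated cells (SD, n = 3 each). Vha13, the G subunit of the stalks, had a log2 change of 0.00 in NELF against LacZ dsRNA cells (95% interval -0.12 to 0.12), and Vha26, the E subunit beside it, one of -0.05 (95% interval -0.20 to 0.09). Groups overlapped for Vha55 and Vha13 in each comparison, and for Vha26 in each except NELF dsRNA against untreated cells, where NELF dsRNA arrays were lower (log2 change -0.10, limma adjusted p = 0.54). Vha44, the C subunit that joins V1 to V0, had the lowest change against LacZ dsRNA cells of the 7 V1 subunits above the detection limit, -0.16 (95% interval -0.38 to 0.07), with overlapping arrays. Vha68-3, under the limit on every array that measured it, had a log2 change of -1.82 with an SE of 1.73. VhaSFD, the regulatory H subunit, had a log2 change of -0.11 (95% interval -0.30 to 0.07) on overlapping arrays.

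In the V0 sector none of 14 tested genes was called in NELF dsRNA cells against either control. Over all probe sets 4.56% were called against LacZ dsRNA cells and 6.16% against untreated cells, so this count is near those shares. VhaPPA1-1, the c'' subunit of the proton-carrying ring, read 11.60, 11.72 and 11.65 in NELF dsRNA cells, against 11.62, 11.66 and 11.63 in LacZ dsRNA cells and 11.74, 11.75 and 11.78 in untreated cells. Untreated arrays lay above all dsRNA arrays, as for cathD, with log2 changes of -0.10 for NELF dsRNA cells (limma adjusted p = 0.40) and -0.12 for LacZ dsRNA cells (SE 0.05, limma adjusted p = 0.45). Vha16-1, the ring's c subunit, averaged 12.19 ± 0.12 in NELF dsRNA cells, 12.15 ± 0.12 in LacZ dsRNA cells and 12.26 ± 0.01 in untreated cells (SD, n = 3 each). Its second probe set averaged 11.64 ± 0.08 in NELF dsRNA cells, 11.59 ± 0.13 in LacZ dsRNA cells and 11.63 ± 0.04 in untreated cells (SD, n = 3 each), and neither probe set was called.

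Subunit a, which holds the proton path beside the ring, had 2 genes above the detection limit on all 9 arrays, with changes of opposite sign that did not pass the test. Vha100-2 read 9.67, 9.54 and 9.82 in NELF dsRNA cells, against 9.79, 9.76 and 10.04 in LacZ dsRNA cells and 9.89, 9.77 and 10.02 in untreated cells. The 3 groups overlapped, and the log2 change was -0.19 against LacZ dsRNA cells (95% interval -0.39 to 0.01, limma adjusted p = 0.37). Vha100-1 averaged 9.61 ± 0.07 in NELF dsRNA cells, 9.51 ± 0.16 in LacZ dsRNA cells and 9.43 ± 0.05 in untreated cells (SD, n = 3 each), with a log2 change of 0.10 against LacZ dsRNA cells (95% interval -0.07 to 0.27) and 0.18 against untreated cells (limma adjusted p = 0.26). Vha100-1 arrays of NELF dsRNA cells lay above all untreated ones and overlapped the LacZ dsRNA ones. The difference between both genes was not tested. The a subunit genes at or under the limit, Vha100-3, Vha100-4 and Vha100-5, had log2 changes of -0.39, -0.06 and 0.19 against LacZ dsRNA cells, with SEs of 0.58 to 0.65.

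The remaining V0 subunits above the limit showed no call either. VhaM9.7-b, a small e subunit, spanned 11.69 to 11.79 over all 9 arrays, the narrowest range of the 15 subunits at 0.10. VhaM9.7-c, its paralog, spanned 8.45 to 8.85, with both ends in LacZ dsRNA cells (arrays 3 and 1). VhaAC39-1, the d subunit that couples the rotor to the ring, had a log2 change of -0.05 in NELF against LacZ dsRNA cells (95% interval -0.21 to 0.11) and -0.11 against untreated cells, where its arrays were lower without overlap (limma adjusted p = 0.52). The median range of the 15 subunits over the 9 arrays was 0.30. It was 0.36 for the 2504 probe sets with a mean of at least 8.66 and 0.47 for all 6929. Intensity was not matched beyond that lower bound of 8.66.

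VhaAC45, the accessory glycoprotein of the V0 sector, had the widest range of the 15, 0.53. It read 10.87, 10.72 and 10.65 in NELF dsRNA cells, against 10.65, 11.12 and 11.18 in LacZ dsRNA cells and 11.12, 11.08 and 10.90 in untreated cells. LacZ dsRNA array 1 sat with the NELF dsRNA arrays, and the 5 other control arrays lay above all of these. The log2 change was -0.24 against LacZ dsRNA cells (SE 0.11, limma adjusted p = 0.35) and -0.28 against untreated cells (SE 0.11, limma adjusted p = 0.19). Without LacZ dsRNA array 1 the changes were -0.40 (limma adjusted p = 0.0061) and -0.28 (limma adjusted p = 0.02), the array entering the second only through the shared estimate of the spread. The first also passed without the 2 arrays with the fewest measured probe sets, of which LacZ dsRNA array 1 is one (limma adjusted p = 0.023), and the second with only the 6 arrays compared (limma adjusted p = 0.032). Without LacZ dsRNA array 1 the members called against untreated cells numbered 5 in place of 3, by the addition of VhaAC45 and Lamp1. Calls over all probe sets rose as well in that setting, from 799 to 996.

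LacZ dsRNA array 1 was also low for other subunits. The median deviation of the 15 subunits from their own means over 9 arrays was -0.04, -0.04 and -0.05 on the NELF dsRNA arrays, against -0.07, 0.02 and 0.07 on the LacZ dsRNA arrays and 0.01, 0.04 and 0.06 on the untreated arrays. LacZ dsRNA array 1 thus had the lowest median of the 9 and LacZ dsRNA array 3 the highest. LacZ dsRNA array 1 was the lowest array for 4 of the 15 subunits, as was NELF dsRNA array 1, while over all 6929 probe sets above the limit these arrays were lowest for 17.6% and 7.09%. Why the LacZ dsRNA arrays differed in this way was not tested.

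**Figure D4:**
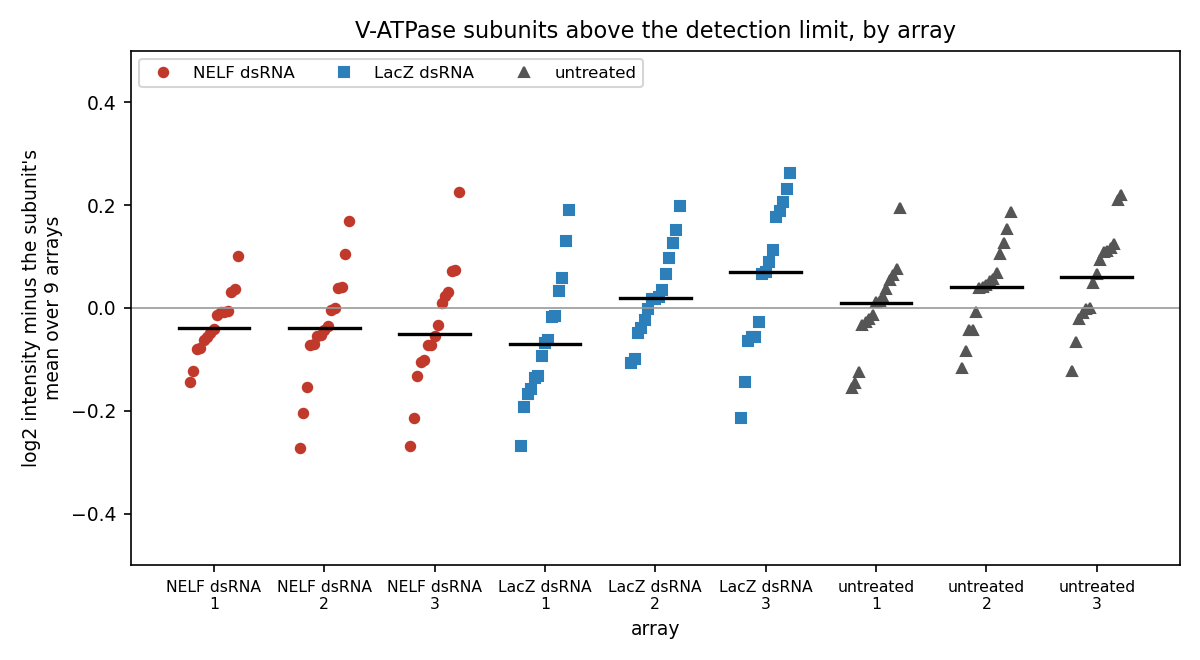
Deviation of each of the 15 detected V-ATPase subunits from its own mean over 9 arrays (log2 intensity), by array, with black bars at the median. NELF dsRNA arrays had medians of -0.04 to -0.05, against -0.07 to 0.07 on LacZ dsRNA arrays and 0.01 to 0.06 on untreated arrays.

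Groups whose arrays did not overlap were counted as a description, and the members' counts were not tested against those of other probe sets. In NELF against LacZ dsRNA cells the groups did not overlap for 5 of 29 members (1 higher, 4 lower), against 22.1% of all probe sets measured on these arrays (10.6% higher, 11.5% lower). Against untreated cells this held for 15 of 29 members (3 higher, 12 lower), against 29.0% of all probe sets in either direction (14.0% higher, 14.9% lower). All of these members were among the 24 above the limit on all 9 arrays, and among the 6929 probe sets above it the shares in either direction were 26.0% against LacZ dsRNA cells and 35.2% against untreated cells. At least 1 of the 3 groups stood apart from both others for 7 of the 24 members above the limit, 29.2%, against 28.1% of the 6929 probe sets. These 7 were Npc2b, CtsB, Acph-1 and Vha14-1 (NELF dsRNA lowest), CtsL1 (LacZ dsRNA lowest), and cathD and VhaPPA1-1 (untreated highest). NELF dsRNA cells enter both NELF comparisons, so the 2 sets of values are not independent.

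The mock treatment itself called no member. In LacZ dsRNA against untreated cells 0 of 34 tested members passed limma's test, against 0.0540% of all probe sets (6 higher and 1 lower of 12974). At an unadjusted p under 0.05 there were 3, all lower, against 10.4% of all probe sets. The 15 detected V-ATPase subunits had a median log2 change of -0.03 and the other 9 lysosomal genes one of -0.09, against -0.02 for all probe sets tested. Groups did not overlap for 3 of 30 members, CtsL1, cathD and VhaPPA1-1, all lower in LacZ dsRNA cells, against 18.3% of all probe sets in either direction and 9.72% lower. All 24 members above the limit had 95% intervals within a 1.5-fold change.

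Genes around the lysosome were counted from lists drawn up for this comparison. Of 22 tested genes for other lysosomal enzymes and membrane proteins, 1 was higher and 2 were lower in NELF than in LacZ dsRNA cells. Over all probe sets tested 1.85% were higher and 2.71% lower. The median log2 change was -0.23 over the 22 genes and 0.01 over all probe sets. Many genes of this list were dim: of 33 with a probe set, 10 lay above the limit on all 9 arrays and 18 on none. Over the 10 the median was -0.11, against 0.01 for all probe sets above the limit. Hexo2, a hexosaminidase, read 9.84, 9.81 and 9.68 in NELF dsRNA cells, against 10.77, 10.81 and 10.91 in LacZ dsRNA cells and 10.97, 10.95 and 10.98 in untreated cells. Its NELF dsRNA arrays lay below all others, 2.08-fold under LacZ dsRNA cells (log2 change -1.06, SE 0.06, limma adjusted p = 8.9e-08). CG6357 read 7.79, 8.11 and 8.0 in NELF dsRNA cells, against 8.54, 8.61 and 8.50 in LacZ dsRNA cells and 8.21, 8.19 and 8.53 in untreated cells. It was 1.5-fold lower than in LacZ dsRNA cells (log2 change -0.58, SE 0.11, limma adjusted p = 0.0038) and did not pass against untreated cells (log2 change -0.34, limma adjusted p = 0.086).

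Swim, a cathepsin-like protein known as a secreted partner of Wingless rather than as a lysosomal enzyme, went the other way. It read 7.05, 6.83 and 6.88 in NELF dsRNA cells, against 5.59, 5.96 and 5.69 in LacZ dsRNA cells and 5.96, 5.52 and 5.61 in untreated cells. The NELF dsRNA arrays lay above all others, 2.26-fold over LacZ dsRNA cells (log2 change 1.17, SE 0.18, limma adjusted p = 0.00069). Of 24 tested autophagy genes, 1 was higher and 0 lower in NELF than in LacZ dsRNA cells, against 1.85% and 2.71% of all probe sets. The higher one was ref(2)P, the p62-like receptor that brings cargo to autophagosomes. ref(2)P read 9.55, 9.57 and 9.52 in NELF dsRNA cells, against 9.02, 8.89 and 9.42 in LacZ dsRNA cells and 9.18, 9.08 and 9.17 in untreated cells. Its NELF dsRNA arrays lay above all others (log2 change 0.43, SE 0.11, limma adjusted p = 0.028), and the call was lost without LacZ dsRNA array 1 or 2 or any 1 NELF dsRNA array (adjusted p from 0.067 to 0.13).

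By limma's test no gene was called in NELF against LacZ dsRNA cells in 3 further lists, against 4.56% of all probe sets. These held 28 tested genes of endolysosomal traffic, 17 of lysosome signalling and 3 listed under V-ATPase assembly. At an unadjusted p under 0.05 there were 2, 2 and 3, against 14.9% of all probe sets. In the third list a part of mtd and wkd in V-ATPase assembly was assumed and not tested, so its values are not a measure of assembly. Its genes Rbcn-3B, mtd and wkd had log2 changes of -0.29, -0.22 and -0.25 (limma adjusted p = 0.31, 0.32 and 0.28). Against untreated cells the median of the 3 was 0.03. In LacZ dsRNA against untreated cells the median of the 3 genes was 0.28, with 0 called by limma's test. Of the 3 genes, 2 had an unadjusted p under 0.05, against 10.4% of all probe sets. For all 3 genes the highest group mean was that of LacZ dsRNA cells. Mitf, the fly homologue of the transcription factors that drive lysosomal and V-ATPase genes, read 4.47, 4.56 and 2.00 in NELF dsRNA cells, against 3.88, 4.90 and 4.83 in LacZ dsRNA cells and 4.59, 4.53 and 4.25 in untreated cells. NELF dsRNA array 3 fell under the detection limit and the other 2 lay among the controls (log2 change -0.86, SE 0.58, limma adjusted p = 0.57).

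**Figure D5:**
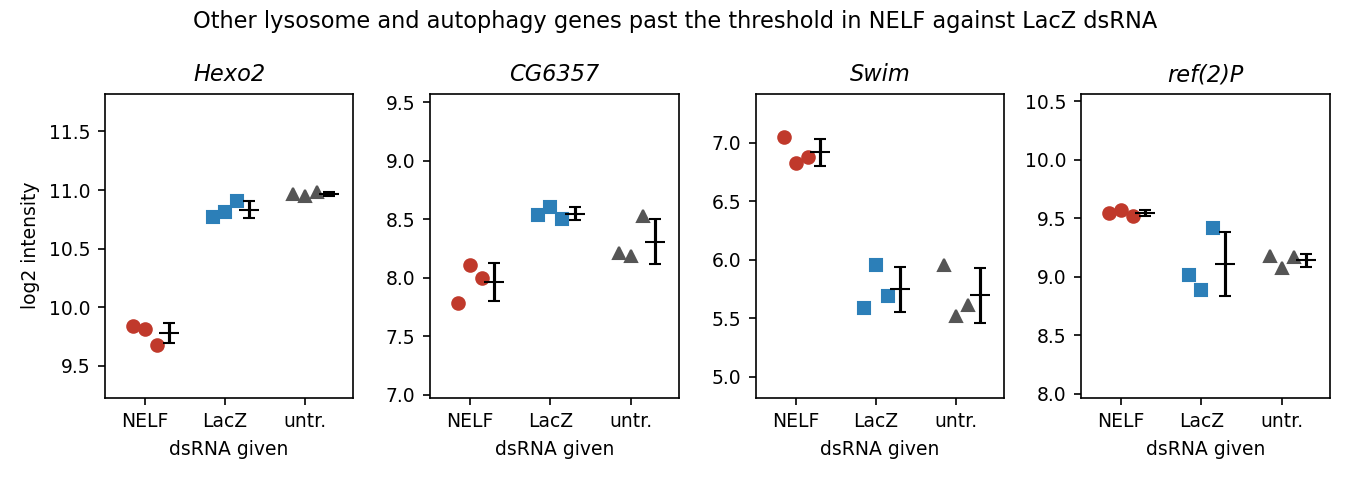
Log2 intensity of Hexo2, CG6357, Swim and ref(2)P on each array, with the group mean and SD (n = 3) beside the points, and the same span of 2.6 log2 units on every axis. Hexo2 and CG6357 were lower, and Swim and ref(2)P higher, on all NELF dsRNA arrays than on all LacZ dsRNA arrays.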

How the data were processed

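RNA of 9 S2 cell samples was labelled with biotin and hybridised to Affymetrix Drosophila Genome 2.0 arrays, scanned with GeneChip Operating Software 1.2.0.037 and imported into Rosetta Resolver 6.0, per the labels' protocols and the series' design text. The authors deposited 1 log2 intensity per probe set and array. The base was inferred from the values, and the sources used here do not give the summarization or normalization. Of the cells outside control probe sets 21.2% were empty and stayed missing. Array medians lay within 0.025, so nothing was renormalized.

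Genes were assigned from the array's annotation table, 13086 of 17899 having 1 gene. limma 3.58.1 in R 4.3.3 (lmFit, eBayes with a variance trend) fitted 1 mean per group where both groups had at least 2 values. On simulated data for NELF against LacZ dsRNA cells it recovered 51 of 100 log2 changes of 0.5 and 83 of 100 of 1.0, with 8 false calls. Changes of 0.5 or less, and some of 1.0, can thus go uncalled. The number of arrays limits the precision, and without scan dates no batch was tested.

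The members and gene lists were chosen with earlier results of these data known. Every member is named. Values on each array are given for members that were called, had a group apart from both others or had the smallest adjusted p of their role, and for up to 3 called genes per list. Npc1a, Npc2a, Mitf and the genes with group means only were added after their values were seen. Alternatives covered normalization, dim and missing values, the variance trend, the arrays fitted, the replicate block, the choice of probe set and each array left out.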

Additional observations from a re-analysis of the deposited data

How the results depend on the processing

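Direction and call held in all 18 alternatives for Npc2b and CtsB in both NELF comparisons (Npc2b against LacZ dsRNA cells from -1.51 to -1.09) and for Acph-1 against untreated cells. Members called in NELF dsRNA against untreated cells numbered 6 when only the 6 arrays compared were fitted, adding Lamp1, VhaAC45 and Vha36-1. Over all probe sets that setting gave 950 calls in place of 799. For NELF against LacZ dsRNA cells it gave 2 members in place of 3, and 477 probe sets in place of 592. With 1 array left out the members called in NELF dsRNA against untreated cells numbered 3 to 5. In NELF against LacZ dsRNA cells they numbered 2 to 4, and in LacZ dsRNA against untreated cells 0 to 0. Over all probe sets, leaving out 1 array gave 426 to 697 calls for NELF against LacZ dsRNA cells (592 with all arrays), 534 to 996 for NELF dsRNA against untreated cells (799) and 2 to 18 for LacZ dsRNA against untreated cells (7). Without the variance trend these were 228, 356 and 1. With the floor at the detection limit LacZ dsRNA against untreated cells gave 4 calls. Without the 2 arrays with the fewest measured probe sets, an alternative chosen after seeing the data, it gave 22, and Npc2b was -1.09 against LacZ dsRNA cells (adjusted p = 0.0019). The causes were not tested.

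Same-numbered arrays did not deviate together (9 correlations from -0.108 to 0.097), so no large effect shared by equal numbers was seen. With 3 arrays a group this cannot tell whether the numbers pair the samples. With the replicate number as a block, 2 members (CtsB and Npc2b) were called in NELF against LacZ dsRNA cells, 3 in NELF dsRNA against untreated cells and 0 in LacZ dsRNA against untreated cells, with 530, 733 and 9 calls over all probe sets.

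Signs turned only for uncalled log2 changes near 0. With 1 array left out, VhaPPA1-1 ran from -0.01 to 0.05 in NELF against LacZ dsRNA cells, and CtsL1 from -0.04 to 0.03 in NELF dsRNA against untreated cells (-0.00 after quantile normalization). In LacZ dsRNA against untreated cells Vha100-2 ran from -0.11 to 0.04, Vha14-1 from -0.06 to 0.02 and VhaAC45 from -0.14 to 0.12, and without both sparse arrays Vha100-2 was 0.01 and VhaAC45 0.12. CG6357 lost its call with the floor (adjusted p = 0.054) and without the trend (adjusted p = 0.092), and ref(2)P in 9 of 18 alternatives.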

Other observations

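Against untreated cells, 2 of 24 tested genes for other lysosomal enzymes and membrane proteins were lower in NELF dsRNA cells and 2 were higher. Over all probe sets tested 3.53% were lower and 2.63% higher. Hexo2 and Sap-r, the precursor of the saposins that help degrade sphingolipids, were the lower ones. Sap-r read 11.55, 11.52 and 11.53 in NELF dsRNA cells, against 11.78, 11.74 and 11.85 in untreated cells, without overlap (log2 change -0.26, SE 0.06, limma adjusted p = 0.026). Against LacZ dsRNA cells, which read 11.66, 11.74 and 11.90, the log2 change was -0.23 (limma adjusted p = 0.052). Swim and spin, a transporter of the late endosome and lysosome membrane, were the higher ones, spin by a log2 change of 0.29 (SE 0.08, limma adjusted p = 0.042). Against LacZ dsRNA cells Swim was the only higher gene of this list, so spin was not called there. Of 17 lysosome signalling genes, only RagC-D was lower in NELF dsRNA than in untreated cells (log2 change -0.25, SE 0.07, limma adjusted p = 0.039). RagC-D is a GTPase of the complex that recruits TOR to lysosomes. None of the 17 was higher, and the shares over all probe sets were the same 3.53% and 2.63%. RagC-D read 9.02, 9.02 and 8.88 in NELF dsRNA cells, against 9.08, 9.16 and 9.10 in LacZ dsRNA cells and 9.24, 9.22 and 9.23 in untreated cells. Sap-r, spin and RagC-D were named here after their values were seen, and their alternatives were not computed.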
